A study of Homo sapiens with 11 samples.

Results

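The windows described here are those that the deposited lists of RPS19-bound RNA annotate first as CDS_SOLITARY, a coding sequence label that the lists do not define. There were 17 of them, in 17 genes, among 122708 windows listed in any group. RPS19 is a protein of the small ribosomal subunit, and its gene is mutated in Diamond-Blackfan anemia, a failure of red blood cell production. Enhanced crosslinking and immunoprecipitation (eCLIP) crosslinks protein to RNA in living cells with ultraviolet light, precipitates the protein and sequences the RNA fragments that come with it. The enrichment of each window over a size-matched input, which is RNA of the same size range taken without the precipitation, is given as a log2 odds ratio.

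The 11 samples came from HEK293T, a human embryonic kidney line. V5-tagged RPS19 was expressed from a transfected plasmid and precipitated through the tag, with the substitution R101H in 2 samples, the substitution R62W in 3 and the wild-type sequence (WT) in 3. The remaining 3 samples were inputs from untransfected cells. They are the only inputs, so the lists share them, and values and overlaps of the lists are not independent. The labels name no change to the cells' own RPS19 gene and no promoter for the plasmid. Whether the replicates were independent cultures is not stated, so each p-value measures the spread of these libraries alone, and that spread may be technical. Each list holds windows that passed in at least 2 replicates of its group with a highest q under 0.2, so a window left out of a list has no value there and is not a measured 0.

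The coding sequence of an mRNA is usually split over several exons, and the first and last coding exons carry the start and stop codons at which the ribosome begins and ends translation. A gene whose coding sequence lies in 1 exon, such as JUN or HSPA1A, carries both in the same exon. The name CDS_SOLITARY points to such genes, but the listed windows of well-known single-exon genes did not carry it. All 12 listed windows of JUN, which encodes a subunit of the transcription factor AP-1, had other labels, with 1 start codon, 1 stop codon and 1 interior coding window among them. HSPA1A, which encodes an inducible HSP70 chaperone, had 17 interior coding windows and 1 start codon window, and IRS4, an insulin receptor substrate gene, had 20 interior coding windows and 1 stop codon window. Over 18 gene lists drawn from families that include genes with all or most of their coding sequence in 1 exon, 258 genes had 983 windows in coding sequence, and 0 were CDS_SOLITARY. Those lists ranged from 191 zinc finger genes with 754 coding windows to the potassium channels with 0 listed genes. Over all coding windows, CDS_SOLITARY made up 0.0259% in R101H, 0.0282% in R62W and 0.0544% in WT. At shares this low, 0 of 983 cannot tell these families from other genes. All 17 genes with a CDS_SOLITARY window had a further listed coding window, and in 15 of them those other coding windows belonged to at least 2 separate annotated segments. NUP155, whose product is a scaffold protein of the nuclear pore, had 24 other coding windows over 20 segments. ANAPC11 and OST4 were the exceptions, with 1 other coding window each. In both it was a start codon window that adjoins the CDS_SOLITARY window. For ANAPC11 and OST4 the listed windows thus do not show a coding sequence split over exons.

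What the 17 windows shared was a stack of labels. Each carried the labels for a start codon, a stop codon and interior coding sequence beside CDS_SOLITARY, taken over between 2 and 9 transcripts. A further 24 listed windows had both the start and stop labels without CDS_SOLITARY, and all of those were annotated first as start codon windows. In 7 of the 17 windows some transcript had an intron at the same place (41.2%), against 11.9% of the 2089 start codon windows, 14.8% of the 3433 stop codon windows, 5.58% of the 57368 interior coding windows and 33.3% of the 24 windows with both labels. The MED31 window was the 1 window that also carried a UTR label. The windows are therefore called CDS_SOLITARY below, and not single-exon genes. No test was made of these annotation counts.

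They were also short. Their lengths ran from 11 bases in UQCR10 to 89 in PSMC6, with a median of 71, and each was the first bin of its segment. The median length was 100 bases for start codon windows and for stop codon windows, and 78 for interior coding windows. None reached the full bin of 100 bases, which 61.6% of start codon windows and 65.6% of stop codon windows did. Only 1.96% of interior coding windows did, so the lack of full bins does not set CDS_SOLITARY windows apart from those. Their G and C content ran from 37.8% in MFSD11 to 74.6% in EMC10, with a median of 55.1%, against 54.0% for start codon, 50% for stop codon and 49.3% for interior coding windows.

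**Figure D1:**
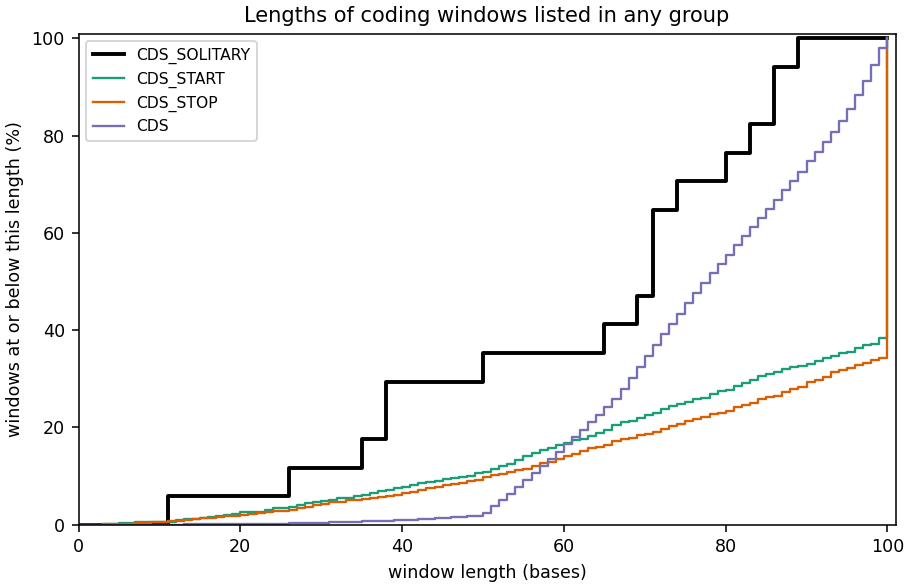
Cumulative share of windows (y axis, percent) at or below each length (x axis, bases) for the 4 kinds of coding window listed in any group. The CDS_SOLITARY line, over 17 windows, reaches the top at 89 bases. Over 60% of start codon and stop codon windows have 100 bases, against 1.96% of interior coding windows.

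The windows lay on 10 chromosomes, with 5 on chromosome 17, 3 on chromosome 16 and 2 on chromosome 2. Against the RefSeq gene spans of GRCh38.p14, which held all 17 symbols, 8 windows lay in the first 5% of the gene and 5 lay past its middle. Positions of the other listed windows were not taken, so these counts set no trait of the class. The PSMC6 window began 31 bases from the 5′ end of its gene, that of TM2D3 49 bases and that of EMC10 67 bases. The windows of ALKBH5, DCTPP1, HSPB1 and MED31 lay at 93.7%, 88.8%, 86.5% and 84.9% of the gene's length, and that of MAZ at 51.5%. The MFSD11 window lay at 2.6%, the OST4 window at 17.4%, the UBE2J2 window at 29.5%, the ACADVL window at 35.4% and the ANAPC11 window at 38.2%. These shares count from the outermost end of the gene span. ACADVL has 2 RefSeq start sites, and its window began 67 bases past the nearest. ANAPC11 has 4, and its window began 2586 bases past the nearest before it.

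The bases of the ACADVL window, 1 of 3 windows listed in every group, and the first bases of the PSMC6 window could be read from RefSeq start site sequences of GRCh38.p14, and they are printed to show what a window with start and stop labels holds. The ACADVL window is chr17:7220005-7220084 on the plus strand, and its bases come from the entry of DLG4, a neighbouring gene on the other strand. The PSMC6 bases are chr14:52707231-52707249 on the plus strand, the first 19 of the 89 in the window. Capitals mark the stop triplets TAA, TAG and TGA in any frame.
ACADVL: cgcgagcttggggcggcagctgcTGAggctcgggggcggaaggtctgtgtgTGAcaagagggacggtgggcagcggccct
PSMC6: TAGagaTAAggcgcttcag

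The ACADVL sequence had 71.2% G and C, the value deposited for the window, with 39 G, 18 C, 11 A and 12 T and 7 CG dinucleotides. On the transcript's strand it held 2 stop triplets, at positions 24 and 52 from its 5′ end, and 0 ATG triplets. On the other strand it held 0 of either. The 19 PSMC6 bases held 2 stop triplets, at positions 1 and 7, and 0 ATG triplets, with 1 stop triplet and 0 ATG triplets on the other strand. Of the 35116 RefSeq start site sequences, 51.7% had an ATG and 84.1% a stop triplet in their last 80 bases, and 16.6% and 39.2% did in their last 19. A triplet in any frame is a description of the letters and not a codon in use.

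The R101H list held 13 CDS_SOLITARY windows of 93331, or 0.0139% (exact Clopper-Pearson 95% interval 0.00742 to 0.0238, counting error only). The R62W list held 13 of 86567, or 0.0150% (0.00800 to 0.0257), and the WT list held 3 of 15402, or 0.0195% (0.00402 to 0.0569). Among coding windows alone the shares were 0.0259% of 50152 in R101H, 0.0282% of 46024 in R62W and 0.0544% of 5514 in WT. The 3 intervals overlap. Their reads made up 0.0179% of the IP reads over the R101H list, 0.0142% over the R62W list and 0.00783% over the WT list, where the lists summed to 7221756 IP reads in R101H, 7234584 in R62W and 2414455 in WT.

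All 3 WT windows were in both substitution lists, as were 69.0% of all 15402 WT windows. They made up 23.1% of the 13 CDS_SOLITARY windows in R101H and in R62W (exact Clopper-Pearson 95% interval 5.04 to 53.8), where over all windows those shared with WT made up 11.9% of the R101H list and 14.2% of the R62W list. R101H and R62W shared 9 CDS_SOLITARY windows, or 69.2% of each list (38.6 to 90.9), and over all windows they shared 59874, or 64.2% of the R101H list and 69.2% of the R62W list. Each interval holds the shares over all windows. A further 4 were in the R101H list alone and 4 in the R62W list alone. For these windows, absence from a list seldom meant that the gene was missing. Of the 14 windows not listed in WT, 11 were in genes with another WT window. The same count was not made over all windows, so whether it is particular to CDS_SOLITARY windows is unknown. MAZ, whose CDS_SOLITARY window was in the R101H list alone, had 42 windows in R101H, 45 in R62W and 7 in WT. TM2D3, whose window was in the R62W list alone, had 11 windows in R101H, 13 in R62W and 2 in WT. DCTPP1, GTF3C3 and PSMC6 had 0 windows in WT.

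The median of the mean log2 odds ratios was 1.54 over 13 windows in R101H (0.86 to 3.31), 1.496 over 13 in R62W (1.09 to 2.68) and 1.29 over 3 in WT (1.19 to 2.10). Medians over all listed windows were 2.00 in R101H, 1.90 in R62W and 2.03 in WT. Start codon windows had 1.59 in R101H, 1.57 in R62W and 1.54 in WT, and stop codon windows 1.82 in R101H, 1.68 in R62W and 1.67 in WT. Interior coding windows had 1.95 in R101H, 1.83 in R62W and 1.73 in WT. The CDS_SOLITARY windows above the median of their list numbered 5 of 13 in R101H, 4 of 13 in R62W and 1 of 3 in WT. Listed windows are chosen for enrichment and the lists differ in length, so these medians carry no test.

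**Figure D2:**
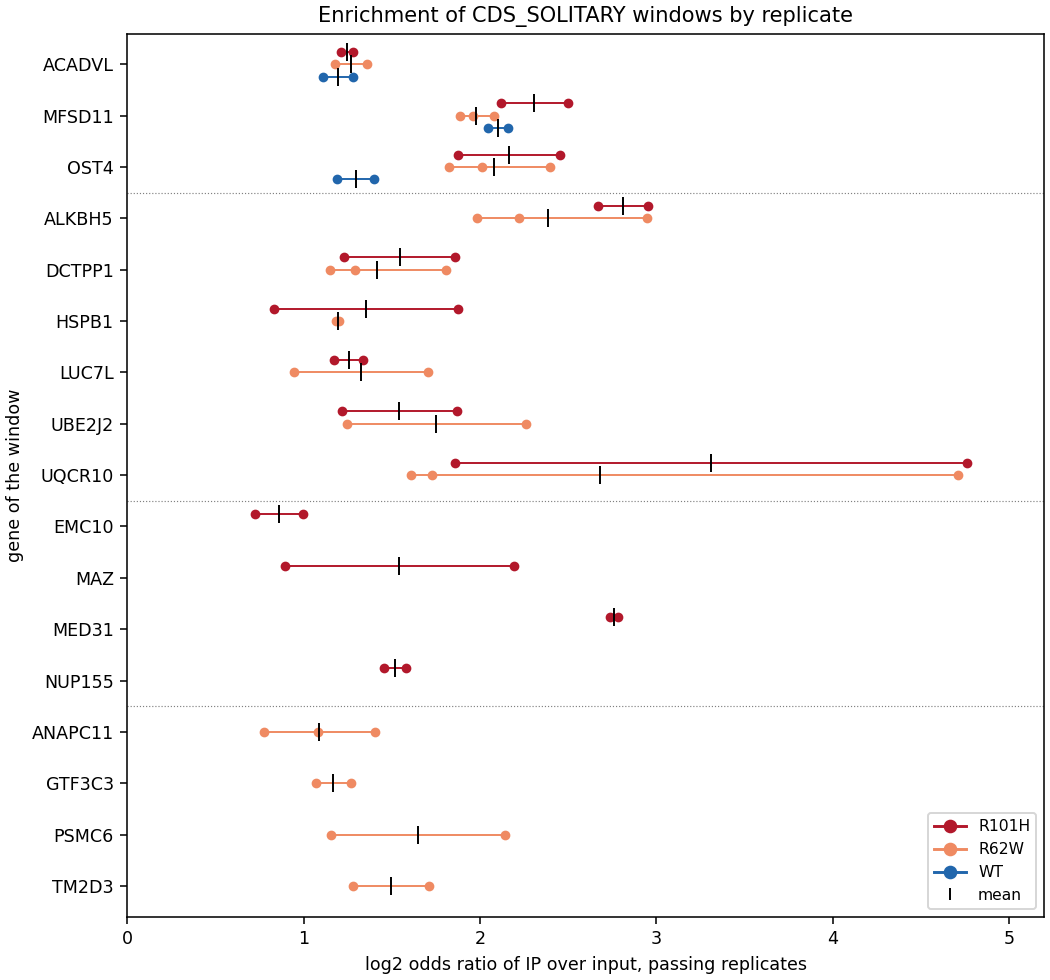
Log2 odds ratio of IP over input (x axis) for each CDS_SOLITARY window (rows, by gene), with 1 point for each replicate in which the window passed, a line over their range and a tick at the mean. Rows run from windows in all 3 lists at the top, through those in R101H and R62W, to those in R101H alone and in R62W alone; the WT points of OST4 lie left of its R101H and R62W points.

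OST4 had the clearest separation between WT and the substitutions among the 3 windows listed everywhere. OST4 is a very small membrane subunit of the oligosaccharyltransferase, the enzyme that attaches sugar chains to proteins entering the endoplasmic reticulum. Its window (chromosome 2, 27071363 to 27071448, minus strand, 86 bases) had log2 odds ratios of 1.87 and 2.45 in R101H, 1.82, 2.01 and 2.40 in R62W, and 1.19 and 1.40 in the 2 WT replicates that passed. Both substitution groups lay wholly above WT and overlapped each other. The reads behind these values were 161 IP and 29 input in R101H over 2 replicates, 192 and 40 in R62W over 3, and 78 and 25 in WT over 2. That is 80.5, 64 and 39 IP reads for each passing replicate, and 14.5, 13.3 and 12.5 input reads. In the authors' deposited table its highest q over replicates was 0.000266 in R101H, the lowest such q of any CDS_SOLITARY window in any list.

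The ranges were apart in this direction, with every R62W replicate above every WT replicate, in 1 of 3 CDS_SOLITARY windows and in 24.1% of the 12263 windows listed in both groups. For R101H and WT the same held in 1 of 3 and in 48.4% of 11082 windows. The R62W minus WT difference for OST4 was 0.78 (SE 0.32, 95% interval 0.01 to 1.56), with an unadjusted p of 0.048 and a limma adjusted p of 0.486 over all windows fitted. The R101H minus WT difference was 0.87 (SE 0.43, -0.18 to 1.92), with a limma adjusted p of 0.296. Neither passed the threshold of 0.05. All windows fitted shared a median shift of 0.26 for R62W and 0.60 for R101H. With that median subtracted, the OST4 differences were 0.52 (95% interval -0.25 to 1.29) for R62W and 0.27 (-0.78 to 1.32) for R101H. The 5′ UTR window of OST4 (27071559 to 27071654) had mean log2 odds ratios of 3.22 in R101H, 2.70 in R62W and 2.23 in WT, beside 2.16 in R101H, 2.08 in R62W and 1.29 in WT for the CDS_SOLITARY window. The 3′ UTR window (27070555 to 27070637) had 2.06 in R101H and 2.18 in R62W, with the substitutions in the opposite order, and was not listed in WT.

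ACADVL encodes very long-chain acyl-CoA dehydrogenase, which starts the breakdown of long fatty acids in mitochondria. Its window, with the sequence printed above, had 1.21 and 1.28 in R101H, 1.18 and 1.36 in R62W, and 1.11 and 1.28 in WT. The groups overlapped. Each list counted 19 input reads here, beside 93 IP reads in R101H, 80 in R62W and 84 in WT, all over 2 passing replicates. The differences were 0.07 for R62W minus WT (95% interval -0.78 to 0.93) and 0.05 for R101H minus WT (-0.91 to 1.01). The other ACADVL windows had medians of 2.01 over 29 windows in R101H, 1.83 over 33 in R62W and 1.60 over 7 in WT. The CDS_SOLITARY window was thus below the median of its gene in every list, and had the lowest value of all 8 ACADVL windows in WT.

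MFSD11 encodes a membrane protein of the major facilitator superfamily, a large group of transporters. Its window (chromosome 17, 76738379 to 76738452, plus strand, 74 bases) was the poorest in G and C. It had 2.12 and 2.50 in R101H, 1.89, 1.96 and 2.08 in R62W, and 2.04 and 2.16 in WT. WT overlapped both substitutions, while R101H lay just above R62W. The reads were few, at 34 IP and 9 input in R101H, 37 and 13 in R62W, and 27 and 8 in WT. The differences were -0.13 for R62W minus WT (95% interval -0.80 to 0.55) and 0.21 for R101H minus WT (-0.789 to 1.203).

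Of the windows listed in both substitutions and not in WT, those of UQCR10 and ALKBH5 had the highest values. UQCR10 encodes a small subunit of respiratory complex III. Its window of 11 bases (chromosome 22, 29767488 to 29767498, plus strand) had 1.86 and 4.76 in R101H and 1.61, 1.73 and 4.71 in R62W. In both groups 1 replicate lay far above the others, with a range of 2.90 in R101H and 3.10 in R62W, the widest of all CDS_SOLITARY windows. The groups share their inputs, and the part of these in both high values was not tested. The values rest on 3 input reads in R101H and 6 in R62W, beside 29 and 37 IP reads. The stop codon window that adjoins it (29767499 to 29767587) had a mean of 0.83 in R101H and 0.88 in R62W.

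ALKBH5 removes the methyl group of N6-methyladenosine from RNA. Its window of 38 bases (chromosome 17, 18208297 to 18208334, plus strand) had 2.67 and 2.95 in R101H and 1.98, 2.22 and 2.95 in R62W. The groups overlapped. It ranked 3 of 27 ALKBH5 windows in R101H and 3 of 25 in R62W, counted from the highest. Input reads numbered 5 in R101H and 9 in R62W, beside 48 and 59 IP reads.

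DCTPP1 encodes a pyrophosphatase that clears dCTP and its modified forms from the nucleotide pool. Its window (chromosome 16, 30424283 to 30424332, minus strand) had 1.23 and 1.86 in R101H and 1.15, 1.29 and 1.81 in R62W. UBE2J2 encodes a ubiquitin-conjugating enzyme anchored in the endoplasmic reticulum membrane, where it serves the disposal of misfolded proteins. Its window (chromosome 1, 1267893 to 1267961, minus strand) had 1.22 and 1.87 in R101H and 1.24 and 2.26 in R62W. Both windows overlapped between the groups.

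HSPB1 encodes the small heat shock protein HSP27. Its window (chromosome 7, 76304074 to 76304159, plus strand) had 0.83 and 1.87 in R101H and 1.185 and 1.198 in R62W, so both R62W values lay inside the R101H range. It was the lowest of 13 HSPB1 windows in R101H, while the stop codon window that adjoins it (76304160 to 76304173) had a mean of 3.48. LUC7L encodes a splicing factor that associates with the U1 snRNP. Its window (chromosome 16, 229240 to 229310, minus strand) had 1.17 and 1.34 in R101H and 0.94 and 1.71 in R62W, with the R101H range inside that of R62W. RefSeq lists pseudogenes of HSPB1, PSMC6 and UQCR10, so reads of these windows may not be unique to them.

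The windows listed in R101H alone were those of EMC10, MAZ, MED31 and NUP155. EMC10, a subunit of the complex that inserts membrane proteins into the endoplasmic reticulum, had the most reads of all (261 IP and 71 input) and the lowest mean. Its window (chromosome 19, 50476574 to 50476644, plus strand) had 0.72 and 1.00. MAZ encodes a zinc finger transcription factor, and its window (chromosome 16, 29808722 to 29808759, plus strand) had 0.90 and 2.19. MED31 encodes a subunit of Mediator, which links transcription factors to RNA polymerase II. Its window of 26 bases (chromosome 17, 6644541 to 6644566, minus strand) had 2.74 and 2.78, with 18 IP and 2 input reads. The NUP155 window (chromosome 5, 37370878 to 37370912, minus strand) had 1.46 and 1.58.

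Those listed in R62W alone were in ANAPC11, GTF3C3, PSMC6 and TM2D3. ANAPC11 encodes the RING subunit of the anaphase-promoting complex. Its window (chromosome 17, 81894513 to 81894577, plus strand) passed in all 3 replicates, with 0.78, 1.08 and 1.40. GTF3C3 encodes a subunit of TFIIIC, which recruits RNA polymerase III. Its window (chromosome 2, 196799512 to 196799594, minus strand) had 1.07 and 1.27, the lowest of 10 GTF3C3 windows, and its highest q in the authors' deposited table was 0.199, at the edge of the list. PSMC6, an ATPase subunit of the proteasome cap, had 1.15 and 2.14 (chromosome 14, 52707231 to 52707319, plus strand). TM2D3, a membrane protein whose Drosophila counterpart acts in Notch signalling, had 1.28 and 1.71 (chromosome 15, 101652262 to 101652332, minus strand).

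**Figure D3:**
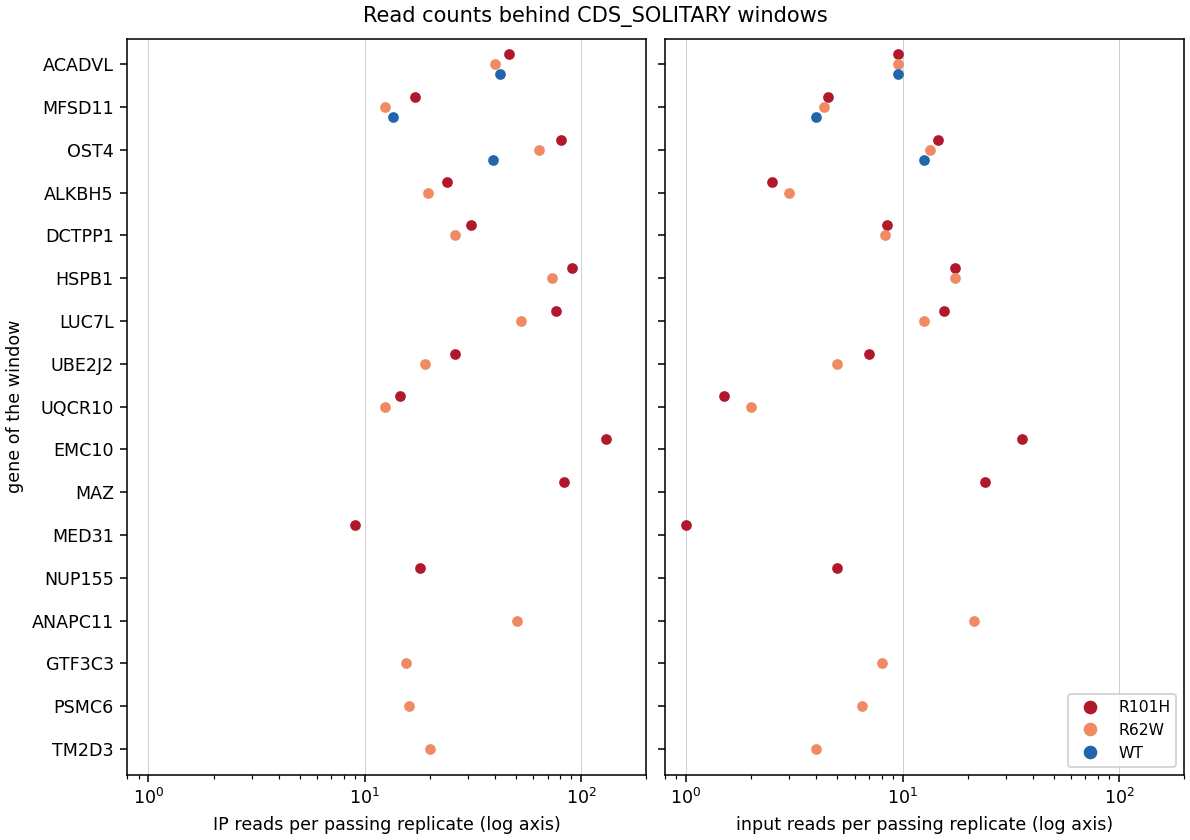
Reads per passing replicate (log x axes) in the IP, left, and the input, right, for each CDS_SOLITARY window (rows, by gene) in R101H, R62W and WT. The windows of MED31, UQCR10 and ALKBH5 have 3 or fewer input reads per passing replicate, and EMC10 has the most reads in both panels.

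The windows with the highest means had few input reads. The 3 windows with the highest means in R101H, those of UQCR10 (3.31), ALKBH5 (2.81) and MED31 (2.76), had 3, 5 and 2 input reads in all. In R62W the leading windows, UQCR10 (2.68) and ALKBH5 (2.38), had 6 and 9, while TM2D3 with 8 had 1.496, the median of the list. The EMC10 window with 71 input reads in R101H and the ANAPC11 window with 64 in R62W had the lowest means of those lists, 0.86 and 1.09. Input depth is part of the ratio itself, and its part in this order was not tested. In all, 4 of 13 windows in R101H, 3 of 13 in R62W and 1 of 3 in WT had under 10 input reads. Low input was not particular to these windows. Their median input was 17 reads in R101H, 16 in R62W and 19 in WT, against 11, 12 and 11 over all listed windows.

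Each CDS_SOLITARY window was also set against the other listed windows of its gene. It had a higher mean than the median of the gene's other listed windows in 6 of 13 cases in R101H (46.2%), 3 of 13 in R62W (23.1%) and 0 of 3 in WT. Over all windows of genes with more than 1 listed window the same held for 49.8% in R101H, 49.8% in R62W and 49.8% in WT, and over start codon windows for 28.2%, 31.8% and 27.9% in the same groups. It held for 45.1%, 40.5% and 42.8% of stop codon windows and 44.5%, 44.1% and 41.4% of interior coding windows. The CDS_SOLITARY window was the highest of its gene in 1 of 13 cases (7.69%) in R101H and in R62W, both times UQCR10, against 7.31% of all windows in R101H and 7.40% in R62W. No test was made of these counts, which are too few to set the CDS_SOLITARY windows apart. ALKBH5 lay 1.48 above the median of its other windows in R101H and 1.03 above in R62W. GTF3C3 had the largest deficit in R62W, at -0.77, and HSPB1 in R101H, at -0.89. A listed window of the same gene adjoined the CDS_SOLITARY window in 5 of 13 cases in R101H and 5 of 13 in R62W, and in 0 of 3 in WT. Adjoining windows were not counted over all windows, and the lists differ in length. These 3 counts therefore show no trait of the class and no difference between groups.

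**Figure D4:**
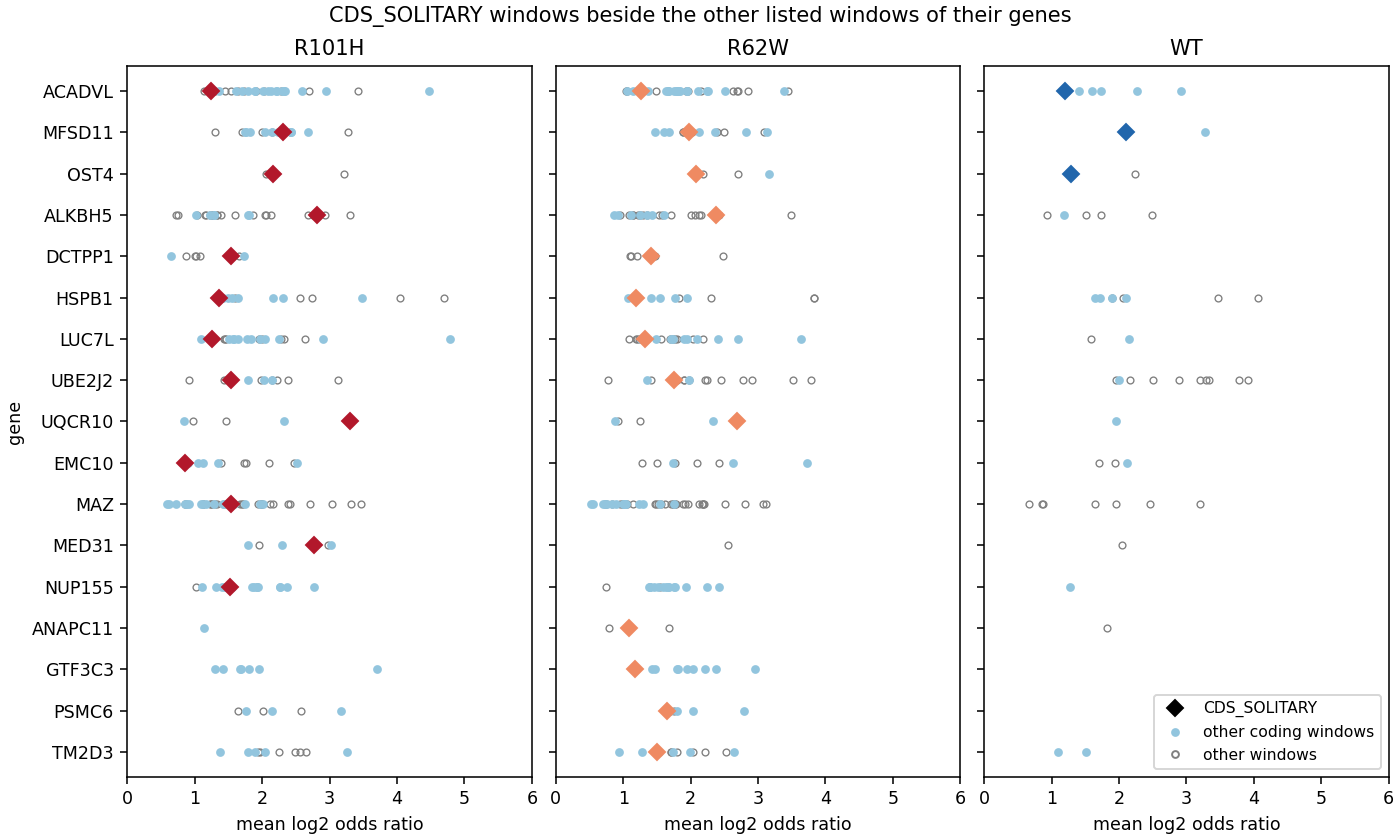
Mean log2 odds ratio (x axes) of every listed window of the 17 genes (rows) in R101H, R62W and WT. Diamonds are CDS_SOLITARY windows, filled points other coding windows and open points the remaining windows. The UQCR10 diamond is the rightmost of its row in R101H and R62W, and the ACADVL and GTF3C3 diamonds lie at the left of theirs.

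Between the substitutions the 9 shared windows differed little relative to the spread of their replicates. In limma 0 of the 9 passed the threshold, as did 0% of the 59874 windows listed in both groups, and 0 of the 9 had an unadjusted p under 0.05, against 1076 of all windows (1.80%). The median R101H minus R62W difference was 0.13, with 6 windows higher in R101H and 3 lower, against a median of 0.21 over all 59874 windows. Relative to that median, 3 of the 9 were higher in R101H (ALKBH5, MFSD11 and UQCR10) and 6 lower. The differences ran from -0.21 in UBE2J2 (95% interval -1.49 to 1.07) to 0.63 in UQCR10 (-2.28 to 3.53). ALKBH5 had 0.43 (-0.53 to 1.39) and MFSD11 0.33 (-0.43 to 1.09). MFSD11 was the only one of the 9 in which every R101H replicate lay above every R62W replicate, which was so in 17.9% of all windows listed in both. Intervals this wide leave differences of about 1 in either direction unresolved for most of these windows. Among windows that passed in all replicates of R101H and of R62W, 5 were CDS_SOLITARY and 0 of them passed, with 0% of 34309 windows called in limma.

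Against WT, 0 of 3 CDS_SOLITARY windows passed in limma for either substitution, as did 0% of all 12263 windows for R62W and 0% of all 11082 for R101H. At an unadjusted p under 0.05 there was 1 of 3 for R62W, the OST4 window, and 0 of 3 for R101H, against 1252 of all windows (10.2%) for R62W and 2365 (21.3%) for R101H. The median difference was 0.07 for R62W minus WT over 3 windows, where all windows had 0.26, and 0.21 for R101H minus WT, where all windows had 0.60. Start codon windows had medians of 0.17 and 0.39, stop codon windows 0.25 and 0.54, and interior coding windows 0.34 and 0.65. Relative to the median of all windows, OST4 was higher and ACADVL and MFSD11 were lower in both comparisons, which use the same WT replicates. With at least 10 input reads in both groups, 654 of 6945 windows were called in limma for R101H minus WT, and neither OST4 (adjusted p = 0.157) nor ACADVL (adjusted p = 0.933) was among them. None of the 3 windows passed in every WT replicate, which only 22.8% of all 15402 WT windows did. The values cover passing replicates only.

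**Figure D5:**
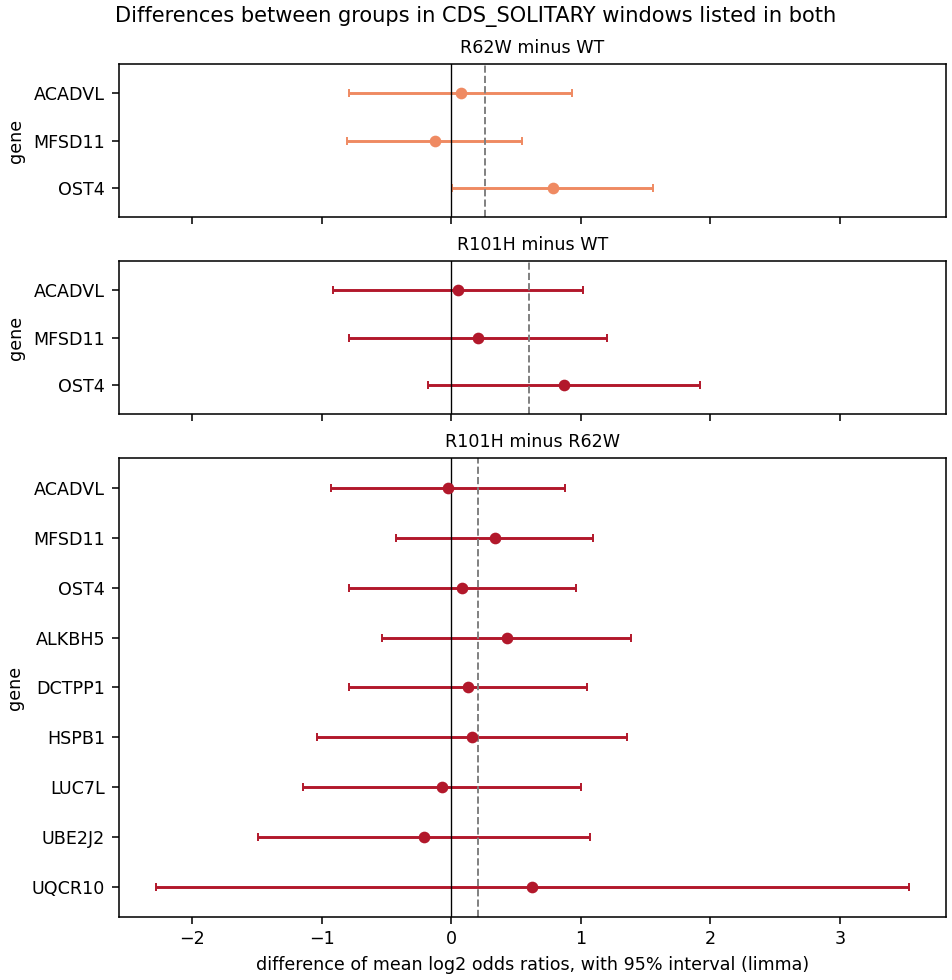
Difference of mean log2 odds ratios between groups (x axis) with its 95% interval from limma, for each CDS_SOLITARY window listed in both groups of a comparison (rows, by gene). Dashed lines mark the median difference over all windows fitted, at 0.26, 0.60 and 0.21. All intervals but that of OST4 in R62W minus WT cross 0, and that interval holds the dashed line at 0.26.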

How the data were processed

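Per the submitters' processing notes, the tools were fastp and STAR and the build GRCh38. Their versions and the program that called windows are not stated in the labels. The authors deposited 1 list of enriched windows per IP group, with read counts of IP and input, the lowest, mean and highest log2 odds ratio over replicates, p-values and q-values of their test, the number of passing replicates and the fraction of G and C bases. No total per library is given there, so library depth is unknown. From the values, counts and log2 values cover passing replicates only. The ratio of R62W to WT input sums was 1.00 where both passed in 2 replicates and 1.63 where R62W passed in 3 and WT in 2.

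Counts are sums, so no count model could be fitted. The unlabelled replicate values, fixed by the lowest, mean and highest, entered limma 3.58.1 under R 4.3.3 (functions lmFit and eBayes), for every window that both groups listed. Benjamini-Hochberg adjusted p-values were called at 0.05. The script was tested on simulated data. Coordinates are 1-based, and overlap needed identical coordinates. Named genes were, per list, the 10 with most CDS_SOLITARY windows (ties by symbol) and the 10 with the highest values, which together took all 17, and up to 4 of each gene list with most windows. The windows and gene lists were chosen with earlier results of these data known. The repeat tables were not used here.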

Additional observations from a re-analysis of the deposited data

How the results depend on the processing

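With lists cut to 15402 windows each, the CDS_SOLITARY share was 0.00649% in R101H and in R62W. The WT share was 0 among windows enriched in every replicate, among those with a highest q of at most 0.05 and with 1 window per gene. Counts of all windows called in limma became 1 for R62W minus WT and 498 for R101H minus WT among windows enriched in every replicate, and 1 and 654 with at least 10 input reads in both groups, none of them CDS_SOLITARY. No CDS_SOLITARY window entered the first of these fits against WT. The median CDS_SOLITARY difference for R62W minus WT was 0.43 over the 2 windows with at least 10 input reads, and that for R101H minus WT was -0.39 when centred on the median of all windows. Centring turned the median for R62W minus WT to -0.19 (0.07 as reported) and that for R101H minus R62W to -0.081 (0.13 as reported). The R101H minus R62W median was 0.33 among windows enriched in every replicate and 0.0315 with at least 10 input reads, a filter under which the R101H minus WT median was 0.46 (0.21 as reported). Centring also turned the sign of 6 single differences, to -0.19 and -0.55 for ACADVL in R62W and R101H minus WT, -0.39 for MFSD11 in R101H minus WT, and -0.081, -0.0497 and -0.12 for DCTPP1, HSPB1 and OST4 in R101H minus R62W. The windows shared with WT became 0% of the R62W and of the R101H windows with the q of at most 0.05 or equal list lengths, and those of R101H shared with R62W became 25% and 100%. In all, 29 values over groups of windows held and 17 moved. Shares held if they stayed within the interval of the reported share, and counts of calls if they stayed within 1.5 times. Medians held if they moved by less than 0.304, a typical SD between replicates of a CDS_SOLITARY window. All median changes above did so but those to 0.43 and -0.39. Of the differences of single windows, 39 kept their sign and their side of the threshold. Only centring could change the sign of a single difference, since the other settings leave the means of a window as they are. Their kept signs are thus no sign of stability. Some of the values over groups of windows could not move either. Among these were the R101H share with every replicate enriched, the WT share at equal length and the medians with 1 value per gene. The overlaps counted at 1 base could not move, since different CDS_SOLITARY windows lie in different genes. Shares without histone and mitochondrially encoded genes could hardly move, since those genes held 0 CDS_SOLITARY windows. Each share in the equal-length lists and under the stricter q rests on 4 or fewer windows, and the cause of the changes was not tested. Replicates could not be left out in turn, since the deposited values carry no replicate name. No paired analysis was possible because those values carry no replicate number.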
